A study of Homo sapiens with 54 samples.

Results

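The mRNAs of 10 genes of the p53 response, out of 31835 genes counted, were followed in OCI-Ly1 cells after a pulse of IL-4. They were ZMAT3, RBM38, MDM2, CDKN1A, SESN1, TP53INP1, DDB2, FAS, AEN, and GADD45A, each found in the count table by its Ensembl identifier. ZMAT3 was picked because its level changed with time and RBM38 because it differed between genotypes at 2 h, so these values are given as descriptions without a test. The other 8 were taken as known p53 targets, with earlier results of these data known. OCI-Ly1, a human cell line grown from a B cell lymphoma, carries the translocation t(14;18), and the study states that its own STAT6 gene holds a variant in the DNA-binding domain. All cells were stably transduced with a Flag-tagged STAT6 cDNA under a CMV promoter, either wild type (STAT6 WT) or one of the mutants D419G, D419N, and N421K, which are pooled as STAT6 MUT. The cells received IL-4 at 10 ng/ml for 20 min, were washed, and were replated without IL-4 until RNA was taken 2, 4, or 8 h later. Each time point held 9 STAT6 WT libraries and 9 STAT6 MUT libraries, 3 from each mutant line, which makes 54 libraries in all. Untreated cells and cells from before the pulse were not analysed here. The number of independent transductions behind each line is not given in the sources used here. Genotype and transduced population therefore cannot be told apart.

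p53 is a transcription factor that is kept low by constant degradation and is stabilized when DNA is damaged or growth is disturbed. It binds a response element made of a pair of like decamers, and switches on genes for cell cycle arrest, DNA repair, metabolic adaptation, and cell death, together with genes that switch p53 off again. Germinal centre B cells, from which this kind of lymphoma derives, keep p53 activity low through the repressor BCL6. STAT6, the transcription factor activated by IL-4, binds a different, palindromic element.

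Libraries were made with prime-seq, which counts mRNA molecules at their 3′ end through unique molecular identifiers (UMIs). They held 161518 to 2978715 UMIs, with a median of 885258.5, and 8 shallow ones, 6 with a mutant and 2 with wild type, held less than 0.5 of the median. Levels are given as CPM, the UMIs of a gene scaled to the library total after TMM normalization, and differences as log2 fold changes with their standard error (SE). The lowest, median, and highest of the 9 libraries of a group are given where single values matter. All 9 germinal centre B cell markers examined were detected, with CD79B at a median of 808 CPM and CD38, the lowest, at 10.2 CPM. The median over the libraries was 0 CPM for the T cell markers CD3G and CD5, the myeloid markers LYZ, CD14, and ITGAM, and the fibroblast and epithelial markers COL1A1, COL1A2, KRT8, and KRT18, while IL7R had a median of 49.6 CPM. The 2, 4, and 8 h libraries lay in different rows of the plate, so time and plate row cannot be told apart. Growth in culture after replating cannot be told apart from time since IL-4 either.

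RefSeq promoter windows on GRCh38, from 250 bases before to 50 after a transcription start, were matched to 8 of the 10 genes, with GADD45A and TP53INP1 having no entry. The windows were searched for the p53 response element, allowing up to 2 mismatches outside the fixed C and G of each decamer and up to 1 base between the decamers. This pattern, which reads alike on both strands, occurred in 187 of 35116 windows of all genes (0.533%). Among the members it occurred in 5 of the 17 windows, which belong to MDM2, DDB2, FAS, and AEN. The MDM2 windows with a match overlap and hold the same element. Among the other p53 targets, described further below, the pattern occurred in 4 of 73 windows (5.48%). The limits of this search were set after the members had been chosen, and a match is a run of letters, not a shown site of p53 binding. The DDB2 match had 0 mismatches and 1 base between the decamers, and the other matches had 2 mismatches and no base between them. The DDB2 match (chr11:47214979-47214999, + strand) lies in an annotated exon and the FAS match (chr10:88991309-88991328, + strand) in a stretch that is exonic in some FAS transcripts, where the opposite-strand gene ACTA2 also has an exon. They are shown with the decamers in capitals because DDB2 is among the members that fell most with time while FAS was barely detected.
DDB2 element: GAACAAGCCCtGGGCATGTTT
FAS element: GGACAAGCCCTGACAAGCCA
The MDM2 match lies in an intron, ahead of the internal promoter that p53 is known to use, and the AEN match lies directly upstream of the gene. The exon-free stretches before these starts are printed with the matched decamers in capitals, for MDM2 chr12:68808767-68809001 and for AEN chr15:88621090-88621336, both on the + strand.
MDM2 upstream of the internal start: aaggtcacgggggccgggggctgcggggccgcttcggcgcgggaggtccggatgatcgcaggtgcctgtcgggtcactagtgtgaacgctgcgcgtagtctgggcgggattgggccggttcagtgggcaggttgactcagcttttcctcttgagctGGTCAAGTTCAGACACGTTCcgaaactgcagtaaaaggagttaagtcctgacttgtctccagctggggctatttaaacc
AEN upstream: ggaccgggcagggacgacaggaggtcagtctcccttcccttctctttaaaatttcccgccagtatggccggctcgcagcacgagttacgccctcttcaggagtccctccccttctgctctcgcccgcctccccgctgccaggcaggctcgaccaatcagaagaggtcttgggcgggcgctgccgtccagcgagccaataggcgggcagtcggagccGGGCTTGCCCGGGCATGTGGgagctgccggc
For RBM38 (chr20:57391146-57391395, + strand) and ZMAT3 (chr3:179069343-179069592, - strand, before the inner of its 2 starts), the genes picked for their pattern, the stretches before the start hold no match and are shown in lower case throughout.
RBM38 upstream: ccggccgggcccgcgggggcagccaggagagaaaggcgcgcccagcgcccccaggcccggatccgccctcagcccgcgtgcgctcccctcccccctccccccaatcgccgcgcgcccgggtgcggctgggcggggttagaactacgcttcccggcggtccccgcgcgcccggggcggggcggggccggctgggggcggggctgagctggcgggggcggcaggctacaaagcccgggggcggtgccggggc
ZMAT3 upstream of the inner start: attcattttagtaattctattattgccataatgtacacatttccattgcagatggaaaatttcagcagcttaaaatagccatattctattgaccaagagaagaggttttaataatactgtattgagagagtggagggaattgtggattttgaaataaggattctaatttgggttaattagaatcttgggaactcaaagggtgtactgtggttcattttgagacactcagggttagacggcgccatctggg
The STAT palindrome TTCNNNNGAA was in 0 of the members' 17 windows and in 6.44% of all windows. Its shorter form TTCNNNGAA was in 1 of the 17, a DDB2 window, and in 7.66% of all windows. No match says only that these letters are not in these windows.

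Over all 54 libraries, most of the 10 mRNAs followed here were lower at 8 h than at 2 h. Of the 8 members not picked for their pattern, 7 passed the count filter and 6 fell, namely SESN1, DDB2, MDM2, CDKN1A, GADD45A, and AEN. Of all 9706 genes tested, 22.9% fell, 23.5% rose, and 46.4% changed in either direction. Without replicate number 3, AEN (adjusted p = 0.315) and GADD45A (0.0693) no longer passed. AEN was also lost with total counts as the scaling (0.123), with the replicate block (0.0530), and without replicate number 6 or 8 (0.0916 and 0.0678). SESN1 passed the filter at 2 h but not in the 4 h or 8 h libraries taken alone. Its fall is therefore a description, here and in the counts from 2 to 4 h and within each genotype below. The members were chosen with earlier results of these data known, and the count only describes them. TP53INP1 did not pass the test (log2 fold change -0.23, SE 0.116, adjusted p = 0.0897) and FAS was below the filter. In such bulk libraries, fewer expressing cells and less RNA per cell cannot be told apart. From 2 to 4 h, each of these 6 genes also fell, against 10.4% of all genes that fell and 22.2% that changed. From 4 to 8 h, DDB2 fell and no other of the 7 passed the test, against 9.27% that fell and 19.0% that changed. The log2 fold changes from 4 to 8 h that did not pass were -0.36 for SESN1 (SE 0.20), -0.01 for TP53INP1, 0.06 for MDM2, CDKN1A, and GADD45A, and 0.17 for AEN. Within STAT6 WT, 6 of the 7 fell from 2 to 8 h, against 13.3% of all genes that fell and 27.6% that changed. These were SESN1, DDB2, MDM2, CDKN1A, TP53INP1, and AEN. The count was 4 without a filter, with DESeq2, or without replicate number 3, 6, or 8, since AEN (adjusted p of 0.0520 to 0.147) and TP53INP1 (0.0523 to 0.245) were both lost there. AEN was also lost with total counts, with the replicate block, without the shallow libraries, and without replicate number 5 or 7 (0.0516 to 0.0766). Within STAT6 MUT, 5 fell, namely SESN1, DDB2, MDM2, CDKN1A, and GADD45A, against 17.1% of all genes that fell and 33.8% that changed. CDKN1A did not pass with total counts as the scaling (adjusted p = 0.0614) or without replicate number 2 (0.124), and GADD45A did not with total counts (0.136), without a filter (0.0783), with DESeq2 (0.0564), or without replicate number 1 (0.0756) or 3 (0.306). A difference between the genotypes in their time course was called for 0 of the 7 by edgeR, by DESeq2, and by limma-voom, against 0.957% of all genes by edgeR, and 3 of the 7 (MDM2, DDB2, and GADD45A) had an unadjusted p under 0.05 by edgeR. Between genotypes, GADD45A and SESN1 of 7 tested passed at 2 h (8.59% of all genes) and GADD45A of 6 tested at 8 h (1.44%). At 4 h, 0 of the 6 tested passed by edgeR (3.97% of all genes), by DESeq2, or by limma-voom, and 1 of the 6 (GADD45A) had an unadjusted p under 0.05 by edgeR.

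**Figure D1:**
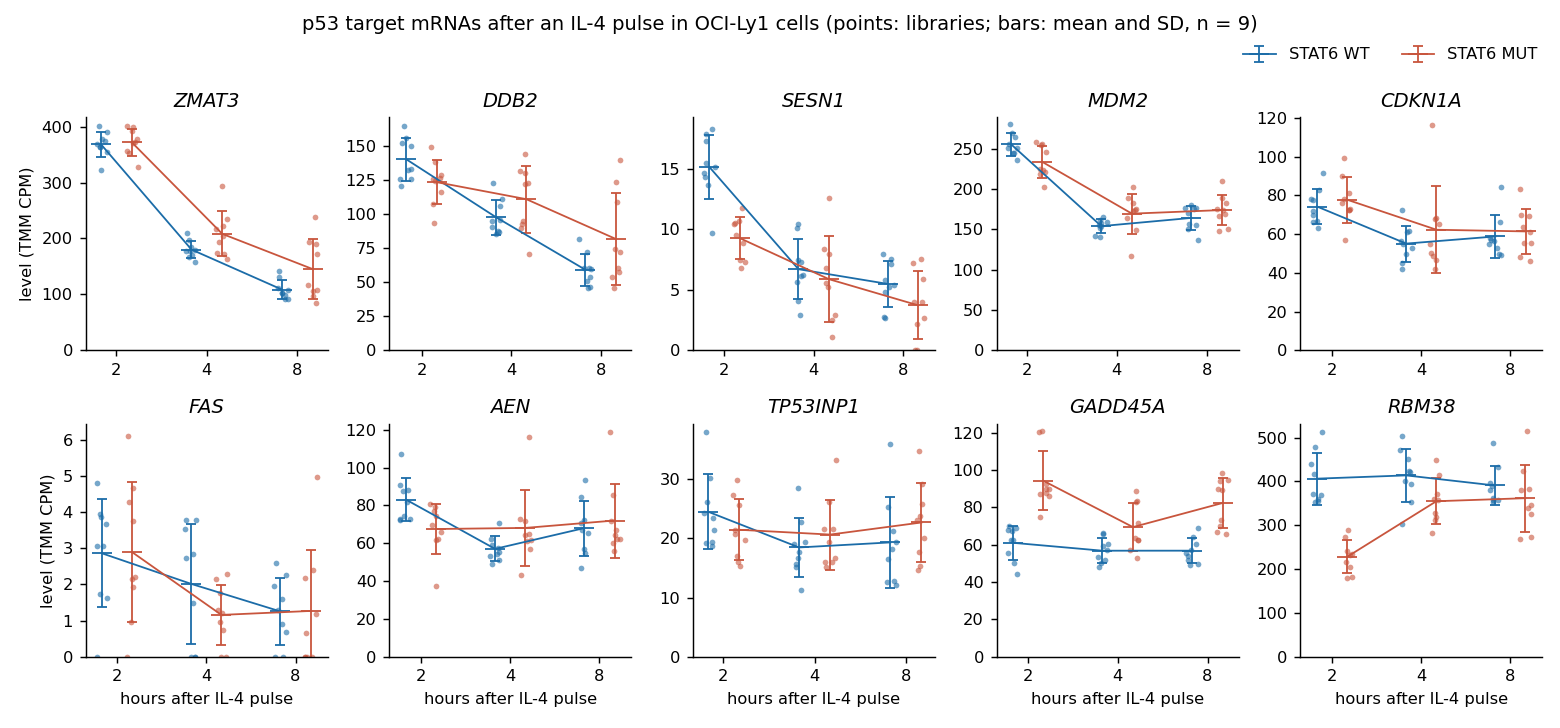
Level of each of the 10 mRNAs in TMM CPM (y axis, from 0, own scale per gene) at 2, 4, and 8 h after the IL-4 pulse (x axis), for STAT6 WT (blue) and STAT6 MUT (red). Points are libraries, and bars are the mean and SD of 9 libraries. ZMAT3, DDB2, SESN1, and MDM2 were lower at 8 h than at 2 h in both genotypes, and RBM38 and GADD45A are the genes in which the genotypes stood apart at 2 h.

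ZMAT3 (chr3:178960121-179072215, - strand) encodes a zinc finger RNA-binding protein that acts on splicing and mRNA stability downstream of p53. In STAT6 WT libraries its level was 322 to 401 CPM at 2 h (median 368), 158 to 210 CPM at 4 h (median 178), and 91.0 to 141 CPM at 8 h (median 103). In STAT6 MUT libraries it was 327 to 401 CPM (median 372), 163 to 294 CPM (median 204), and 84.4 to 239 CPM (median 117). In both genotypes each 8 h library lay below all 2 h libraries. The log2 fold change from 2 to 8 h was -1.70 (SE 0.0662), which placed ZMAT3 at rank 2 of all genes by p. This is the contrast it was picked on. The genotypes were close at 2 h (log2 fold change 0.02, SE 0.0552, adjusted p = 0.915), and at 8 h STAT6 MUT was higher by 0.27 (SE 0.126) without passing the test (adjusted p = 0.333). The spread at 8 h was wider in STAT6 MUT (SD 54.3 CPM) than in STAT6 WT (SD 16.9 CPM), and its highest values, 239 CPM in D419N replicate 3 and 193 CPM in N421K replicate 2, rest on 41 and 39 UMIs in shallow libraries. Without the 8 shallow libraries the 8 h difference was 0.20 (adjusted p = 0.483).

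MDM2 (chr12:68808177-68845544, + strand) encodes the ubiquitin ligase that marks p53 for degradation and closes the feedback loop. Its level in STAT6 WT was 237 to 281 CPM at 2 h (median 251), 140 to 165 CPM at 4 h (median 155), and 137 to 180 CPM at 8 h (median 170). In STAT6 MUT, the values were 203 to 258 CPM (median 225), 117 to 203 CPM (median 174), and 148 to 210 CPM (median 174). The 2 and 8 h libraries did not overlap in STAT6 WT, and 8 of 9 STAT6 MUT libraries at 8 h lay below all of 2 h. The log2 fold change was -0.61 (SE 0.0482, adjusted p = 8.89e-19) from 2 to 4 h and 0.06 (SE 0.0511, adjusted p = 0.464) from 4 to 8 h. MDM2 did not differ between genotypes over the time points by the test (0.01, SE 0.0406, adjusted p = 0.888).

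CDKN1A and GADD45A stand for cell cycle arrest. CDKN1A (chr6:36676460-36687337, + strand) encodes p21, an inhibitor of cyclin-dependent kinases. Its median in STAT6 WT was 72.1 CPM at 2 h (range 63.0 to 91.7), 55.2 CPM at 4 h (42.1 to 72.3), and 56.4 CPM at 8 h (49.3 to 84.6). In STAT6 MUT it was 76.2 CPM (56.8 to 99.2), 54.7 CPM (41.8 to 116), and 61.3 CPM (46.0 to 83.3). The ranges of 2 and 8 h overlapped in both genotypes, and over all libraries the change was -0.32 (SE 0.0735, adjusted p = 1.52e-04). CDKN1A did not pass the test between genotypes at any time point, with log2 fold changes of 0.05 to 0.07.

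GADD45A (chr1:67685201-67688334, + strand) encodes a small stress protein that binds PCNA and activates a MAP kinase cascade. It was the one member not picked for its pattern that passed the test between genotypes over all time points, and it was higher in STAT6 MUT (log2 fold change 0.47, SE 0.0601, adjusted p = 2.09e-09). In this comparison 13.4% of 9261 genes passed, 6.74% being higher and 6.62% lower. At 2 h, STAT6 WT libraries held 44.5 to 70.3 CPM (median 62.5) and STAT6 MUT libraries 75.0 to 121 CPM (median 89.6), so that all 9 STAT6 MUT libraries lay above all of STAT6 WT. At 4 h the ranges were 47.9 to 66.2 CPM (median 57.2) and 52.7 to 89.0 CPM (median 63.6), with 4 of 9 above. At 8 h they were 49.3 to 69.2 CPM (median 55.5) and 65.5 to 98.5 CPM (median 89.4), with 7 of 9 above. The difference passed the test at 2 h (0.61, SE 0.0954, adjusted p = 4.56e-06) and at 8 h (0.52, SE 0.0990, adjusted p = 0.00137) but not at 4 h (0.23, SE 0.104, adjusted p = 0.259). That the difference itself changed with time did not pass the test (interaction, adjusted p = 0.331). From 2 to 8 h GADD45A fell by 0.22 (SE 0.0655, adjusted p = 0.00391) over all libraries, which no longer passed without replicate number 3 (adjusted p = 0.0693).

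DDB2 and SESN1 serve repair and metabolic adaptation. DDB2 (chr11:47214465-47239217, + strand) encodes the subunit that recognizes UV damage in DNA. In STAT6 WT its level was 121 to 165 CPM at 2 h (median 134), 85.6 to 123 CPM at 4 h (median 94.8), and 45.8 to 81.8 CPM at 8 h (median 59.5). The STAT6 MUT libraries held 93.8 to 150 CPM (median 126), 70.8 to 144 CPM (median 122), and 45.5 to 140 CPM (median 72.0). The 2 and 8 h libraries were apart in STAT6 WT and overlapped in STAT6 MUT, where the highest 8 h values were 140 CPM in D419N replicate 3 and 124 CPM in N421K replicate 2, from 24 and 25 UMIs. DDB2 fell by 1.05 on the log2 scale from 2 to 8 h (SE 0.0802, adjusted p = 4.62e-20). The change was -1.24 (SE 0.110) in STAT6 WT and -0.86 (SE 0.119) in STAT6 MUT, or -0.94 in STAT6 MUT without the shallow libraries. A difference between the genotypes in this time course did not pass the test (interaction, adjusted p = 0.370).

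SESN1 (chr6:108984309-109094846, - strand) encodes a sestrin, which restrains mTORC1. It was a low mRNA, with medians of 4 to 11 UMIs per group. In STAT6 WT the level was 9.72 to 18.3 CPM at 2 h (median 15.1), 2.96 to 10.4 CPM at 4 h (median 6.25), and 2.64 to 7.98 CPM at 8 h (median 5.44). In STAT6 MUT it was 6.84 to 11.8 CPM (median 9.57), 1.08 to 12.6 CPM (median 5.55), and 0 to 7.57 CPM (median 3.96). SESN1 fell by 1.31 from 2 to 8 h (SE 0.166), in the model of line and time point. Taken alone, only the 2 h libraries, where it is high, passed the filter for SESN1, so this fall is a description. At 2 h it was lower in STAT6 MUT by a log2 fold change of -0.59 (SE 0.176, adjusted p = 0.0226), with 5 of 9 STAT6 MUT libraries below all of STAT6 WT. This call was lost in 8 of 22 alternatives, among them leaving out replicate numbers 1, 2, or 3 (adjusted p = 0.0689, 0.125, and 0.124). All STAT6 MUT libraries carry these replicate numbers, so each such omission also removed mutant libraries. At 4 and 8 h SESN1 was below the filter.

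FAS, AEN, and TP53INP1 belong to cell death. FAS (chr10:88953813-89029605, + strand), the death receptor, had a median of 1 to 3 UMIs per group and at most 6.11 CPM. It was below the filter, and without the filter its change from 2 to 8 h was -1.27 (SE 0.339, adjusted p = 0.00222). FAS overlaps STAMBPL1 on the same strand, which had 330 UMIs in all libraries together, and the use of strand in counting is not given in the sources used here. AEN (chr15:88621337-88632281, + strand), a nuclease that takes part in apoptosis, had medians of 81.9, 55.5, and 67.1 CPM at 2, 4, and 8 h in STAT6 WT, and of 69.6, 64.3, and 64.2 CPM in STAT6 MUT. It fell by 0.35 from 2 to 4 h (SE 0.0756, adjusted p = 2.43e-04). Its change from 2 to 8 h was -0.18 (SE 0.0736, adjusted p = 0.0343) and did not pass without replicate number 3, 6, or 8 (adjusted p = 0.315, 0.0916, and 0.0678). This change was also lost with total counts as the scaling (adjusted p = 0.123) and with the replicate block (0.0530). TP53INP1, a cofactor that steers p53 towards apoptosis and autophagy, lies on chromosome 8 and overlaps NDUFAF6 on the opposite strand, which had 5217 UMIs. Its medians were 23.5, 17.8, and 18.1 CPM in STAT6 WT and 20.7, 19.5, and 23.1 CPM in STAT6 MUT. In STAT6 WT the change from 2 to 8 h was -0.42 (SE 0.156, adjusted p = 0.0332), and it did not pass without replicate number 1, 3, 6, or 8 (adjusted p of 0.0784 to 0.245). In STAT6 MUT it was 0.00 (SE 0.170).

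RBM38 (chr20:57391396-57409333, + strand) encodes an RNA-binding protein that is induced by p53, stabilizes CDKN1A mRNA, and represses translation of p53. It was picked because it was low in STAT6 MUT at 2 h. There, the STAT6 WT libraries held 354 to 513 CPM (median 371) and the STAT6 MUT libraries 180 to 290 CPM (median 233), with no overlap. By line, the 2 h values were 273, 233, and 290 CPM in D419G, 182, 206, and 216 CPM in D419N, and 180, 242, and 234 CPM in N421K. The log2 fold change was -0.79 (SE 0.0751), at rank 6 of 8651 genes by p, and is a description.

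The 4 and 8 h libraries were not used to pick RBM38. At 4 h, STAT6 WT held 302 to 505 CPM (median 422) and STAT6 MUT 283 to 450 CPM (median 358), a difference of -0.23 (SE 0.0784) that did not pass the test (adjusted p = 0.0986). At 8 h, the ranges were 353 to 487 CPM (median 380) and 268 to 515 CPM (median 346), and the difference was -0.05 (SE 0.0810, adjusted p = 0.869). Over the 36 libraries of 4 and 8 h together, RBM38 differed by a log2 fold change of -0.14 (adjusted p = 0.186), where 6.62% of 8930 genes passed. In STAT6 WT its log2 fold change from 2 to 8 h was -0.04 (SE 0.0842), given as a description, beside -1.82 for ZMAT3, -1.24 for DDB2, and -0.63 for MDM2 in the same libraries. In STAT6 MUT it was higher at 8 h than at 2 h by 0.70 (SE 0.0920), a value that rests on the 2 h libraries it was picked on. RBM38 overlaps the antisense RNA RBM38-AS1, which had 265 UMIs in all.

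**Figure D2:**
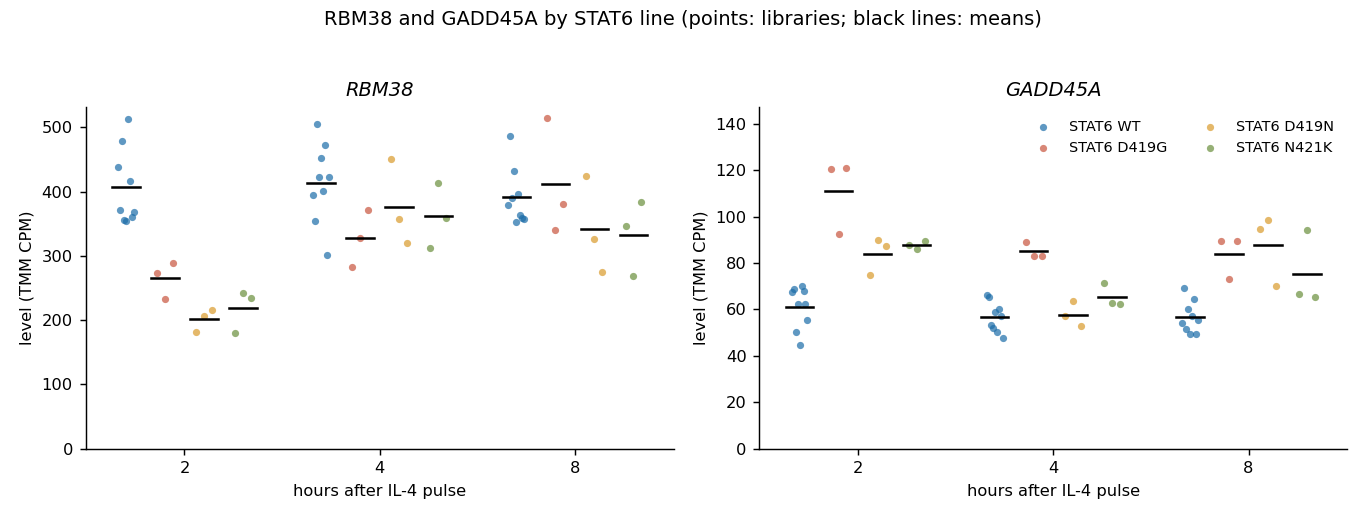
Levels of RBM38 and GADD45A in TMM CPM (y axes, from 0) at 2, 4, and 8 h after the pulse (x axes), by line. Points are libraries, 9 of STAT6 WT and 3 of each mutant line per time point, and black lines are means. At 2 h all mutant libraries lay below the STAT6 WT libraries for RBM38 and above them for GADD45A, and the RBM38 ranges of the genotypes overlapped at 4 and 8 h.

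Compared by line over the 3 time points, GADD45A was higher than in STAT6 WT in each mutant, by 0.71 in D419G (SE 0.0783, adjusted p = 2.32e-11), 0.35 in D419N (SE 0.0822, adjusted p = 0.00399), and 0.36 in N421K (SE 0.0731, adjusted p = 1.13e-04). The share of all genes that passed was 5.38%, 2.75%, and 13.7% in the same order. The lines share their STAT6 WT libraries. At 2 h GADD45A was at 120, 92.4, and 121 CPM in D419G, at 75.0, 89.9, and 87.2 CPM in D419N, and at 87.7, 86.1, and 89.6 CPM in N421K. At 4 h it was at 89.0, 83.1, and 83.2 CPM in D419G, all above the highest STAT6 WT library though the last rests on 15 UMIs, and at 57.2, 63.6, and 52.7 CPM in D419N, all within the STAT6 WT range. The 3 lines differed in GADD45A (adjusted p = 0.0174, against 2.39% of genes called), a call that was lost without replicate number 1 (adjusted p = 0.553) or 3 (adjusted p = 0.264). No other of the 7 members not picked for their pattern that passed the filter differed among the lines by this test, the next being DDB2 (adjusted p = 0.236). SESN1 was lower in N421K (-0.58, SE 0.190, adjusted p = 0.0276), which was lost without replicate number 1, 2, or 3 (adjusted p of 0.0806 to 0.168).

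**Figure D3:**
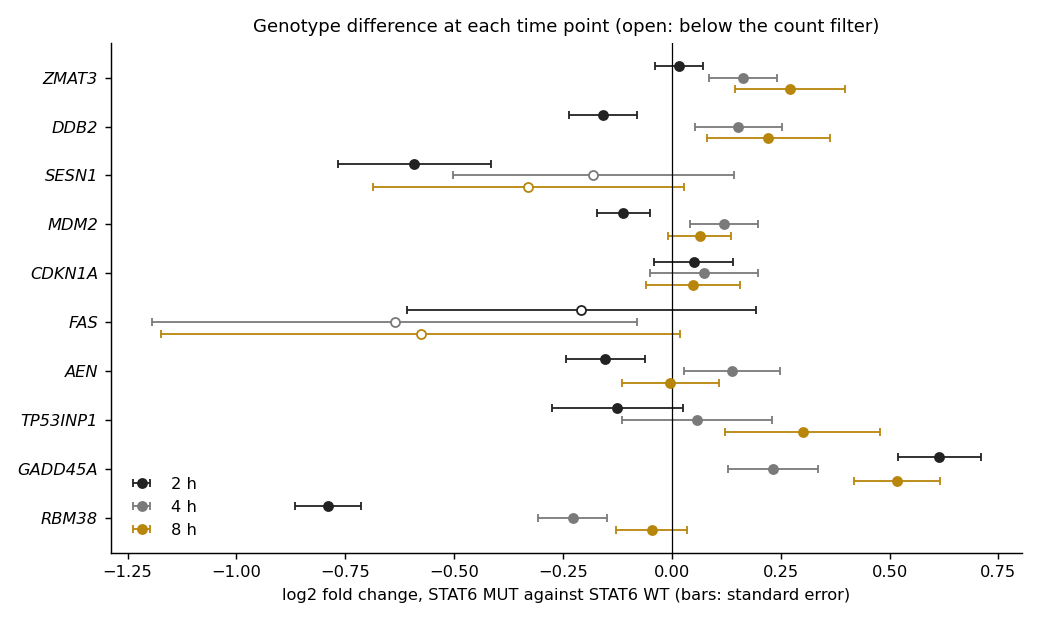
Difference between STAT6 MUT and STAT6 WT as log2 fold change (x axis, bars are SE) for the 10 genes (y axis) at 2, 4, and 8 h, 9 libraries per genotype and time point. Open points are genes below the count filter. GADD45A lay above 0 at each time point, from 0.23 to 0.61, whereas RBM38 moved from -0.79 at 2 h to -0.05 at 8 h.

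MDM4, which inhibits p53 alongside MDM2, fell by 0.21 from 2 to 8 h (SE 0.056, adjusted p = 0.0016), and PPM1D, a phosphatase that switches the response off, did not pass (-0.22, SE 0.15, adjusted p = 0.22). Of 16 genes listed for the control of p53, 13 were tested. From 2 to 8 h, 2 of them rose (WRAP53 by 0.37 and ATR, a damage kinase, by 0.36) and 3 fell (the acetyltransferase EP300 by 0.36, CDKN2A by 0.25, and MDM4), which is 38.5% of the 13 against 46.4% of all genes. Between genotypes over the time points, 1 of the 13 passed, EP300, which was higher in STAT6 MUT by 0.22 (SE 0.051, adjusted p = 9.6e-04), which is 7.69% against 13.4% of all genes.

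A further 61 known p53 targets were in the table, of which 44 passed the filter. Taken alone, 43 passed in the 2 h, 39 in the 4 h, and 40 in the 8 h libraries (8651, 8605, and 8801 of all genes). Some of the 44 may thus pass only through the time point where they are high, so their falls are a description. From 2 to 8 h, 21 of the 44 fell and 7 rose (47.7% and 15.9%, against 22.9% and 23.5% of all genes tested). Their median log2 fold change was -0.17, against 0.00 over all genes tested. The largest falls were in BBC3 (-1.97, SE 0.21, adjusted p = 2.2e-13), which encodes the death effector PUMA, in TNFRSF10B (-1.01, SE 0.11, adjusted p = 3.7e-13), a receptor for TRAIL, and in CCNG1 (-0.98, SE 0.091, adjusted p = 6.4e-16), encoding cyclin G1. The largest rises were in CCNG2 (0.68, SE 0.11, adjusted p = 1.8e-07), SLC12A4 (0.48, SE 0.17, adjusted p = 0.014), and APAF1 (0.41, SE 0.12, adjusted p = 0.0023), a component of the apoptosome. By role, 6 of 13 tested apoptosis genes fell and 3 rose, 3 of 5 cell cycle genes fell and 1 rose, 3 of 6 repair genes and 3 of 6 metabolic genes fell with no rise, and 6 of 14 feedback and other genes fell and 3 rose. Falls occurred in all 5 roles, where 22.9% of all genes fell and 23.5% rose. The groups are small, so this is a description, and 16 of the 44 genes did not pass in either direction. The list was written by hand with results of these data known, so its count describes these genes and is no test of p53 activity.

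**Figure D4:**
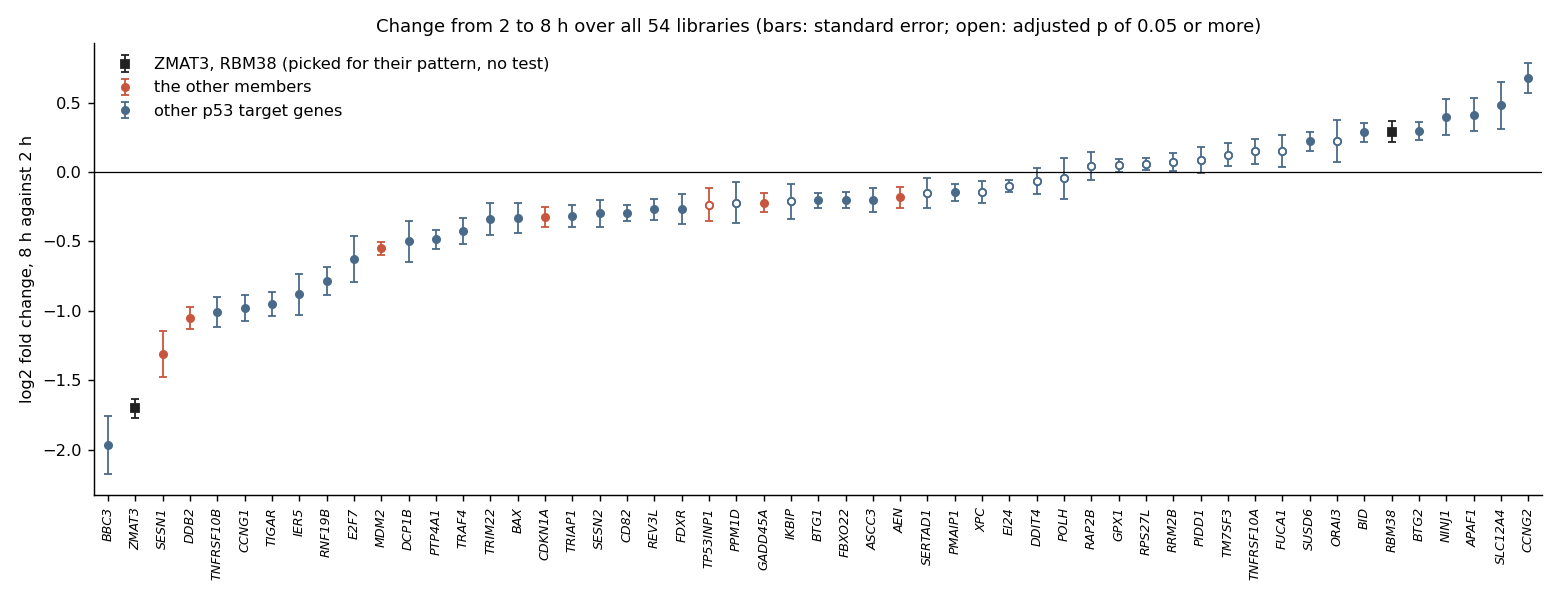
Log2 fold change from 2 to 8 h over all 54 libraries (y axis, bars are SE) for the p53 targets that passed the count filter, ordered by their change (x axis). Black squares are ZMAT3 and RBM38, red points the other members, and blue points the other targets, with open points where the adjusted p was 0.05 or more. BBC3, ZMAT3, SESN1, DDB2, and TNFRSF10B stand at the lower end, from -1.97 to -1.01, and CCNG2 at the upper end.

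Between genotypes over the time points, 6 of the 44 other targets were higher and 4 lower in STAT6 MUT (22.7%, against 13.4% of all genes). E2F7, a repressor of cell cycle genes, was higher by 0.52 (SE 0.14, adjusted p = 0.0042), TRIM22, which is also an interferon-induced gene, by 0.39 (SE 0.092, adjusted p = 0.0013), and IKBIP by 0.39 (SE 0.11, adjusted p = 0.0061). Lower were CCNG2 (-0.29, SE 0.094, adjusted p = 0.024), TRAF4 (-0.28, SE 0.083, adjusted p = 0.012), and BTG2 (-0.26, SE 0.053, adjusted p = 1.1e-04), an antiproliferative gene. The genotype differences thus ran in both directions among the targets.

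Other gene groups also moved with time. The summed level of 8 detected heat shock genes was 4526 to 5319 CPM in STAT6 WT at 2 h and 7176 to 7979 CPM at 8 h, and over all libraries 6 of the 7 tested rose from 2 to 8 h and 0 fell, where 23.5% of all genes rose. The summed level of 12 proliferation genes was 2131 to 2397 CPM and 2092 to 2329 CPM in the same libraries, and over all libraries 7 of the 12 fell and 1 rose (58.3% lower, against 22.9% of all genes). Of 9 germinal centre B cell markers, 6 rose and 2 fell, against 23.5% and 22.9%. Their part in the time changes of the p53 targets was not tested.

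Over the 54 libraries, the genes most like ZMAT3 outside the members, by Pearson's r of log2 CPM among 9706 genes, were IDI1 (r = 0.91), ATF5 (r = 0.91), and HMGCS1 (r = 0.90), of which IDI1 and HMGCS1 encode enzymes of sterol synthesis. Those most like RBM38 were S1PR2 (r = 0.80), a receptor that confines germinal centre B cells, CD79B (r = 0.79), a subunit of the B cell receptor, and MFSD12 (r = 0.79). Among the members, ZMAT3 was most like DDB2 (r = 0.85) and MDM2 (r = 0.77). The libraries share their time points and genotypes, so these values describe a common pattern over 6 groups.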

How the data were processed

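Per the labels and the study's methods, prime-seq libraries of OCI-Ly1 cells were sequenced, processed with the Drop-seq pipeline, and the authors deposited UMI counts per gene and library without normalization or pooling. The submitters' processing notes name hg38 as the genome build. Which annotation was counted, and whether strand was used, is not given in the sources used here. Of 31835 gene rows, 30959 were matched to a symbol, 0 rows lacked a gene identifier, and 0 value columns were left unused. Gene positions and overlaps came from GENCODE v44, and promoter windows from RefSeq on GRCh38.

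The counts were tested with edgeR 4.0.16 in R 4.3.3 (quasi-likelihood test, TMM normalization, filterByExpr, Benjamini-Hochberg adjustment over all genes tested, adjusted p under 0.05). Genotypes were compared with time point as a covariate and within each time point, times with line as a covariate or in a model of 6 groups, and lines with time point as a covariate. Log2 CPM used a prior count of 2. Log2 fold changes without the filter are given only for genes that did not pass it. DESeq2 1.42.0 and limma 3.58.1 (voom), other scalings and filters, the plate row within a time point as a covariate, a replicate block, and leaving out libraries, replicate numbers, or lines were alternatives. Plots were drawn with Python and matplotlib. On simulated counts, 189 of 189 changed genes among 9182 were recovered across time points with 8 unchanged genes called. At 2 h, 173 of 173 among 8625 were recovered with 6 unchanged genes called. For 8 h against 2 h, it was 192 of 192 among 9519 with 11 unchanged genes called. For the interaction it was 183 of 193 among 9423 with 8, and among the mutant lines 194 of 196 among 9514 with 9. The planted changes were larger than most differences reported here, so recovery of smaller ones was not tested.

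The members and gene lists were chosen with earlier results of these data known. The named genes were all members, MDM4, PPM1D, up to 3 called genes with the largest rise and fall of each list across time points and from 2 to 8 h, and the 3 genes most correlated with ZMAT3 and RBM38; 1 further gene is not reported here. The labels call the replicates biological, and p-values measure the spread between these libraries. Within groups, 135 pairs of libraries differed by a chi-square of 1.07 to 3.98 per degree of freedom, and each library was counted as its own replicate.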

Additional observations from a re-analysis of the deposited data

Results flagged for a closer look

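Among 60 groups of 9 libraries (10 genes, both genotypes, 3 time points), the highest or lowest library stood apart in 3 by Dixon's criterion on log2 CPM (critical ratio 0.493), where chance gives about 1 in 20. CDKN1A was high in D419G replicate 3 at 4 h (116 CPM against 68.2 CPM in the next library, ratio 0.525), from 21 UMIs. SESN1 was low in STAT6 WT replicate 7 at 2 h (9.72 against 13.7 CPM, ratio 0.531), from 6 UMIs. AEN was low in D419N replicate 2 at 2 h (37.4 against 61.6 CPM, ratio 0.642), from 10 UMIs.

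The STAT6 MUT effect on RBM38 differed between time points (interaction, adjusted p = 8.19e-05, where 0.957% of genes passed), but this uses the 2 h libraries on which RBM38 was picked and is a description. Of the 44 other p53 targets tested, the difference between genotypes changed with time point for 2 by the interaction test (4.55%, against 0.957% of all genes). These were BTG2 (adjusted p = 1.68e-04) and DDIT4 (adjusted p = 0.0474). Among the 3 mutant lines, a difference was called for GADD45A (adjusted p = 0.0174), for 2 of the 44 other targets, GPX1 (adjusted p = 1.85e-04) and CD82 (adjusted p = 0.0234), and for 2 of the 9 germinal centre B cell markers, BCL6 (adjusted p = 1.75e-04) and MS4A1 (adjusted p = 0.00446), where 2.39% of genes passed. DDIT4, GPX1, CD82, BCL6, and MS4A1 are named because they passed, after their values were seen.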

How the results depend on the processing

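For 46 member values that passed the threshold, 870 alternative values were computed. Of these, 820 kept their direction and their side of the threshold, 50 kept their direction but no longer passed, and 0 changed sign. The values include those of ZMAT3 and RBM38 in the contrasts they were picked on, so this tally is no test of those genes. The median of all genes moved by less than 0.1 under the other scalings. Counts refer to the 8 members not picked for their pattern. Across time points (1 called) the count was 2 with the plate row within a time point as a covariate, without the D419G line, and without the D419N line, in each case through SESN1. At 2 h (2 called) it was 1 without a filter, with DESeq2, without the D419G line, and without the N421K line, and 1 to 2 without single replicate numbers, each time by loss of SESN1. From 4 to 8 h (1 called) it was 2 without the shallow libraries and 1 to 2 without single replicate numbers, AEN being the gene added. From 2 to 8 h in STAT6 WT (6 called) it was 4 without a filter or with DESeq2 and 4 to 6 without single replicate numbers. From 2 to 8 h in STAT6 MUT (5 called) it was 3 with total counts as the scaling. It was 1 to 2 in D419G (1 called) and 1 to 2 in N421K (2 called) without single replicate numbers, and in N421K 1 without a filter or with a mean count of at least 10. For the difference among the lines (1 called) it was 0 without a filter and 0 to 1 without single replicate numbers. From 2 to 8 h over all libraries (6 called), AEN and GADD45A were both lost without replicate number 3.

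No pairing by replicate number was seen. Deviations of libraries with the same number had a median correlation of -0.00845 within a line (range -0.106 to 0.241). For other numbers within a line it was 0.00565 (range -0.289 to 0.221). A weak pairing could not be seen in this way. Each mutant line had replicate numbers 1, 2, and 3, while STAT6 WT had 1 to 9. Leaving out any of the numbers 1, 2, and 3 removed mutant libraries, whereas leaving out any of 4 to 9 removed only STAT6 WT. A block on the replicate number therefore bases the genotype difference on the libraries numbered 1, 2, and 3. With this block, the count was 1 across time points, 1 at 2 h, 0 at 8 h, 0 in D419N, and 1 in N421K, with GADD45A at 8 h at an adjusted p of 0.297. The 2 h libraries were left out as an alternative added after seeing the data. Depth limits SESN1 and FAS, with at most 41 and 14 UMIs per library.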
